A study of Mus musculus with 4 samples.

Results

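Heat shock proteins and other chaperones were described in LSK cells, the lineage-negative, Sca-1-positive and Kit-positive bone marrow fraction that holds mouse blood stem cells and multipotent progenitors. The members were named by gene symbol and comprise 10 of the 24421 genes in the count table. They fall into 5 genes known for induction by heat shock factor 1 (Hspa1a, Hspa1b, Dnajb1, Hsph1 and Hsp90aa1), 3 cytosolic genes known for constitutive expression (Hspa8, Hsp90ab1 and Dnaja1) and 2 mitochondrial genes (Hspd1 and Hspe1). The division is by textbook role and is not strict, since Hspa8, Dnaja1, Hspd1 and Hspe1 also respond to heat. RNA sequencing compared 2 libraries from Zfp521 knockout mice (Zfp521-/-, KO) with 2 libraries from control littermates whose genotype label is wild type (WT). The labels name no promoter or Cre driver for the deletion, and give neither age nor sex. They call the RNA samples independent and the cells pooled, with no word on how many animals went into each. The p-values therefore measure the spread between these libraries, some of which may be technical.

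Chaperones bind unfolded or partly folded proteins and keep them from aggregating while they fold. HSP70 proteins bind short stretches of a client, J domain proteins deliver the client and trigger ATP hydrolysis, and HSP110 proteins such as Hsph1 release the nucleotide so that the cycle can restart. HSP90 proteins take over clients at a later stage, many of them kinases and steroid receptors. In mitochondria, Hspd1 (HSP60) forms a chamber that Hspe1 (HSP10) closes as its lid. When unfolded proteins accumulate, heat shock factor 1 forms trimers and binds heat shock elements, which are alternating GAA and TTC units, in the promoters of inducible chaperone genes. Blood stem cells are known for low protein synthesis and for sensitivity to disturbed protein folding.

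The promoters below are shown for their matches to the units of heat shock elements, which not every member window held. They are RefSeq sequences of build GRCm38.p6, printed 5′ to 3′ on the strand of the gene, from 250 bases before to 50 bases after an annotated start. Capitals mark the GAA and TTC units of each GAANNTTC or TTCNNGAA match; the pattern reads the same on both strands, and neighbouring matches can share a unit. The Hsph1 window lies at chr5:149636266-149636565 on the minus strand, the Hspe1 window at chr1:55087898-55088197 on the plus strand, the Hspa1a window at chr17:34972107-34972406 and the Hspa1b window at chr17:34959189-34959488, the last 2 on the minus strand.
Hsph1 promoter: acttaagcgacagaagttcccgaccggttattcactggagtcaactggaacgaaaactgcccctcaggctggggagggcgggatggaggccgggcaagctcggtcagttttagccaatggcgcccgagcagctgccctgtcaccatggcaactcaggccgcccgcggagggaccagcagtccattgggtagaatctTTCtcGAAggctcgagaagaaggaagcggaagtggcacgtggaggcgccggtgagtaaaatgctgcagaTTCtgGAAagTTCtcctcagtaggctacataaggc
Hspe1 promoter: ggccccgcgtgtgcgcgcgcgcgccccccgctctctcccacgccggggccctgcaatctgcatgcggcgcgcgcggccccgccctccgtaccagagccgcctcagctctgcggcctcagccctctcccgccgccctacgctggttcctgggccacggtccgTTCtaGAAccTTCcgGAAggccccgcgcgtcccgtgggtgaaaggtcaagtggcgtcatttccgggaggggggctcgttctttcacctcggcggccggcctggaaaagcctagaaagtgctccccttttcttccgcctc
Hspa1a promoter: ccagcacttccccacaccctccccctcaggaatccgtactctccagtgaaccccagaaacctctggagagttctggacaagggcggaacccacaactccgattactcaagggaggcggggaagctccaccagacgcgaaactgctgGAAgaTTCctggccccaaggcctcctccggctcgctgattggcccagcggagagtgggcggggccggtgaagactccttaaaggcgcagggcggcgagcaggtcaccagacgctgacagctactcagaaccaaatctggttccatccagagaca
Hspa1b promoter: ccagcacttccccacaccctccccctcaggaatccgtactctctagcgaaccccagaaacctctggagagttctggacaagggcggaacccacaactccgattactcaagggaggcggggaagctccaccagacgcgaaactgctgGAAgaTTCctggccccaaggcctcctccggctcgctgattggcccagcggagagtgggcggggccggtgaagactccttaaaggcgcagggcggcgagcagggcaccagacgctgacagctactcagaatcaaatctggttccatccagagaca

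The Hspe1 window carried a run of alternating units with 3 overlapping matches of 2 units. The same run lay in the window of 1 of the Hspd1 starts, at chr1:55087883-55088182 on the opposite strand, because these windows overlap. The window of the other Hspd1 start held 0 matches. Hsph1 had 3 matches in its window, with 3 units in a row after the start. A run of 3 units was found in 198 of 32851 promoter windows, or 0.603%, among them windows of Hsph1, Hspe1 and Hspd1. A match of 2 units was found in 15.1% of windows, and Hspa1a, Hspa1b and 1 of the 3 Dnaja1 windows had 1 such match each. The Hspa1a and Hspa1b windows were identical at 296 of 300 positions. Neither Dnajb1 window held a match of 2 units. Hsp90aa1, Hsp90ab1 and Hspa8 had no window in the promoter set and could not be assessed. Matches describe the letters of these windows and not occupancy by a factor.

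The libraries held 22000036 and 17787425 counts in KO and 29863594 and 25813391 counts in WT. Rn45s, the ribosomal RNA precursor, took 14.6% and 9.37% of counts in KO and 15.3% and 15.7% in WT. Zfp521, the deleted gene, had 13.9 and 10.9 CPM in KO libraries, against 56.0 and 57.5 CPM in WT libraries. CPM, the count of a gene relative to library size, is given here after TMM scaling, which assumes that most genes do not differ. Kit, the receptor used in the sort, had 697 and 702 CPM in KO and 617 and 708 CPM in WT, while Ly6a, which encodes Sca-1, had 37.2 and 66.9 CPM in KO and 47.6 and 36.9 CPM in WT. The Y-linked genes summed had 9 and 12 counts in KO, 14 in WT replicate 1 and 5606 in WT replicate 2, so the WT libraries differ in sex pattern. Of 14140 genes tested with edgeR's quasi-likelihood test at an adjusted p under 0.05, 425 were lower and 533 higher in KO, against 289 lower and 664 higher with upper quartile scaling.

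Chaperone transcripts had lower mean levels in KO LSK cells for 8 of the 9 members tested, with the largest change in Hsph1. The 4 genes that passed the test were Hsph1, Hsp90aa1, Dnaja1 and Hspd1, all lower in KO by 1.75-fold to 3.03-fold. That is 4 of 9 members tested lower and 0 higher, beside 3.01% of all genes tested called lower and 3.77% called higher. At an unadjusted p under 0.05, and in DESeq2, 0 members were higher as well. Both KO libraries lay below both WT libraries for 8 of the 9 tested members, which was the case for 27.6% of all genes tested. At an unadjusted p under 0.05, 8 members were lower, beside 11.4% of all genes. The median log2 fold change over the 9 tested members was -0.61, against 0.02 over all genes tested. The members were chosen with earlier results of these data known, so these shares describe the list and are not independent support. In bulk libraries, fewer cells that express a gene and less RNA per cell cannot be told apart.

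**Figure D1:**
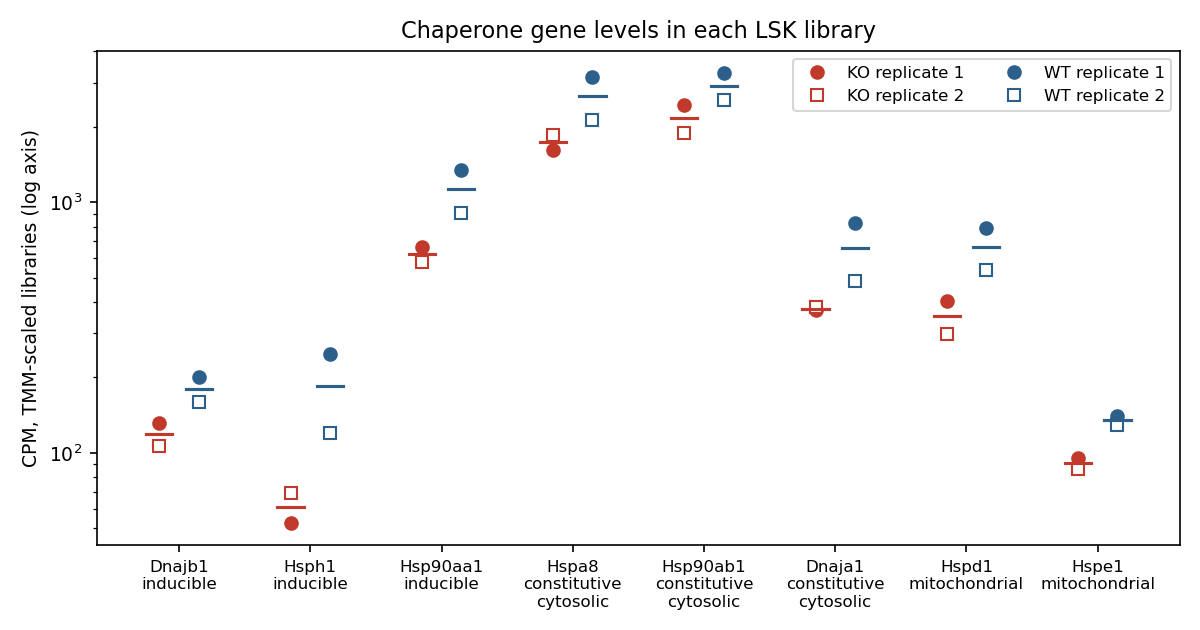
Level of 8 chaperone genes in each library, in CPM of TMM-scaled libraries on a log axis; points are libraries, short lines are group means, and KO stands left of WT. For each of these genes both KO libraries lie below both WT libraries, and WT replicate 1 is the highest of the 4 libraries.

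Among the inducible genes, Hsph1 encodes HSP110, the nucleotide exchange factor and disaggregase partner of HSP70 (ENSMUSG00000029657.15, chr5:149614287-149636376, minus strand, 19 exon blocks). It had 1164 and 1365 counts in KO and 6914 and 2996 counts in WT, or 52.6 and 69.3 CPM in KO against 248 and 120 CPM in WT. The groups did not overlap, and the WT libraries were further apart than the KO libraries. Its log2 fold change was -1.60 (SE 0.28, 95% interval -2.22 to -0.98), which is 3.03-fold lower in KO (adjusted p = 0.00927 in edgeR's test).

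Hsp90aa1 encodes the stress-inducible cytosolic HSP90 (ENSMUSG00000021270.13, chr12:110690605-110702728, minus strand). It had 661 and 578 CPM in KO libraries, against 1345 and 907 CPM in WT libraries. The KO values lay close together, and the WT values were further apart. The log2 fold change was -0.86 (SE 0.18, adjusted p = 0.0189).

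Dnajb1 encodes HSP40, the J domain partner of inducible HSP70 (ENSMUSG00000005483.10, chr8:83608193-83612653, plus strand). It had 131 and 106 CPM in KO libraries and 200 and 160 CPM in WT libraries. The groups did not overlap, but the difference did not pass over all genes (log2 fold change -0.60, 95% interval -0.98 to -0.22, adjusted p = 0.062).

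Hspa1a and Hspa1b encode the inducible HSP70 and lie in tandem on chromosome 17, as single-exon genes on the minus strand (chr17:34969190-34972156 and chr17:34956436-34959238). Hspa1a had 0 and 32 counts in KO and 27 and 4 counts in WT, and Hspa1b had 6 and 8 counts in KO and 4 and 0 counts in WT. These values are at most 1.63 CPM, where 3 counts correspond to 0.108 to 0.152 CPM, and the Hspa1a groups overlapped. Hspa1b fell under the filter on low counts and was not tested. Hspa1a had a log2 fold change of 0.50 with a 95% interval of -2.63 to 3.63, so that a large change in either direction was not detectable at this depth.

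The Hspa1a and Hspa1b counts have a limit in the sequence itself. Of 2892 distinct stretches of 76 bases, the read length, in annotated Hspa1a transcripts, 61.5% also occur in a transcript of another gene, and for Hspa1b the share was 55.6%. Allowing 2 mismatches, 70.5% of Hspa1a stretches match Hspa1b and 74.7% of Hspa1b stretches match Hspa1a. Hspa1a also shares 564 exonic bases with the opposite-strand gene Gm20481. How the counting treated reads that match several places is not stated, so low counts of these genes do not show low expression.

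**Figure D2:**
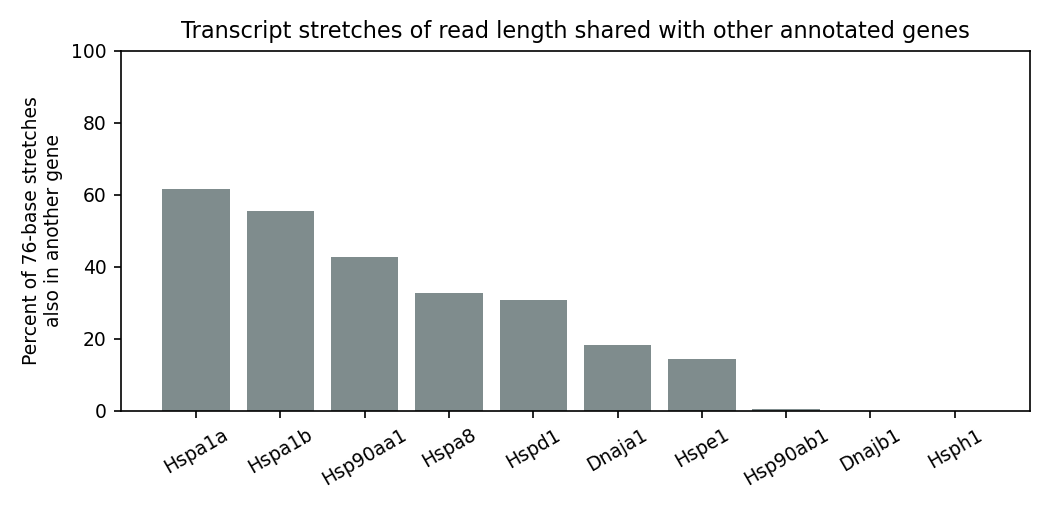
Percentage of distinct 76-base stretches in the annotated transcripts of each member that also occur, on either strand, in a transcript of another annotated gene. Hspa1a and Hspa1b share over 50%, Hsp90aa1 and Hspa8 share 42.6% and 32.8%, and Dnajb1 and Hsph1 share none.

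The same count differed widely among the other members. Hsph1 and Dnajb1 had no shared stretch, and Hsp90ab1 had 0.476%. Hsp90aa1 shared 42.6% of its stretches, chiefly with the copy Gm12346, and Hspa8 shared 32.8%, with copies such as Gm15459. For Hspd1 the share was 30.7%, mostly with Hspd1-ps3, for Dnaja1 18.3% and for Hspe1 14.4%. Gm12346, Gm15459 and Hspd1-ps3 have no row of their own in the count table. Hsph1, the gene with the largest change, is therefore among those least touched by shared reads, while levels of Hsp90aa1, Hspa8 and Hspd1 are uncertain to the extent of their shared stretches.

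Among the constitutive cytosolic genes, Hspa8 encodes HSC70, the HSP70 of unstressed cells (ENSMUSG00000015656.17, chr9:40800984-40810087, plus strand). It had 1622 and 1857 CPM in KO libraries and 3162 and 2134 CPM in WT libraries. The gap between WT replicate 2 and KO replicate 2 was smaller than the gap between the WT libraries. The log2 fold change was -0.61 (95% interval -0.99 to -0.22), which did not pass (adjusted p = 0.0638).

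Hsp90ab1 encodes the constitutive cytosolic HSP90 (ENSMUSG00000023944.14, chr17:45567775-45573271, minus strand) and was the most abundant member. It had 2450 and 1886 CPM in KO and 3271 and 2548 CPM in WT. KO replicate 1 and WT replicate 2 lay close together, and the difference did not pass (log2 fold change -0.42, 95% interval -0.79 to -0.06, adjusted p = 0.141).

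Dnaja1 encodes a J domain cochaperone of HSC70 (ENSMUSG00000028410.13, chr4:40722150-40737149, plus strand). It had 371 and 382 CPM in KO libraries and 829 and 484 CPM in WT libraries. The KO libraries were nearly equal and both lay below WT replicate 2. The log2 fold change was -0.80 (SE 0.21, adjusted p = 0.0432), and the call was lost with upper quartile scaling (adjusted p = 0.0602). Its exons share 608 bases with Smu1 on the opposite strand, and without a stated strand setting the reads of that stretch cannot be told apart.

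Among the mitochondrial genes, Hspd1 had 404 and 297 CPM in KO libraries and 790 and 538 CPM in WT libraries (ENSMUSG00000025980.14, chr1:55077835-55088243, minus strand). Both KO libraries were below both WT libraries, but the gap between KO replicate 1 and WT replicate 2 was smaller than the gap between the WT libraries. The log2 fold change was -0.92 (SE 0.20, adjusted p = 0.0211).

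Hspe1, its cochaperonin, starts head to head with Hspd1 (ENSMUSG00000073676.4, chr1:55088132-55091307, plus strand), and 112 exonic bases belong to both. It had 95.7 and 86.4 CPM in KO libraries and 140 and 130 CPM in WT libraries. The replicates lay close together, with 91.1 ± 6.53 CPM in KO and 135 ± 7.51 CPM in WT (SD, n = 2 each). Its log2 fold change was -0.57 (95% interval -0.91 to -0.22), which did not pass (adjusted p = 0.0559).

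**Figure D3:**
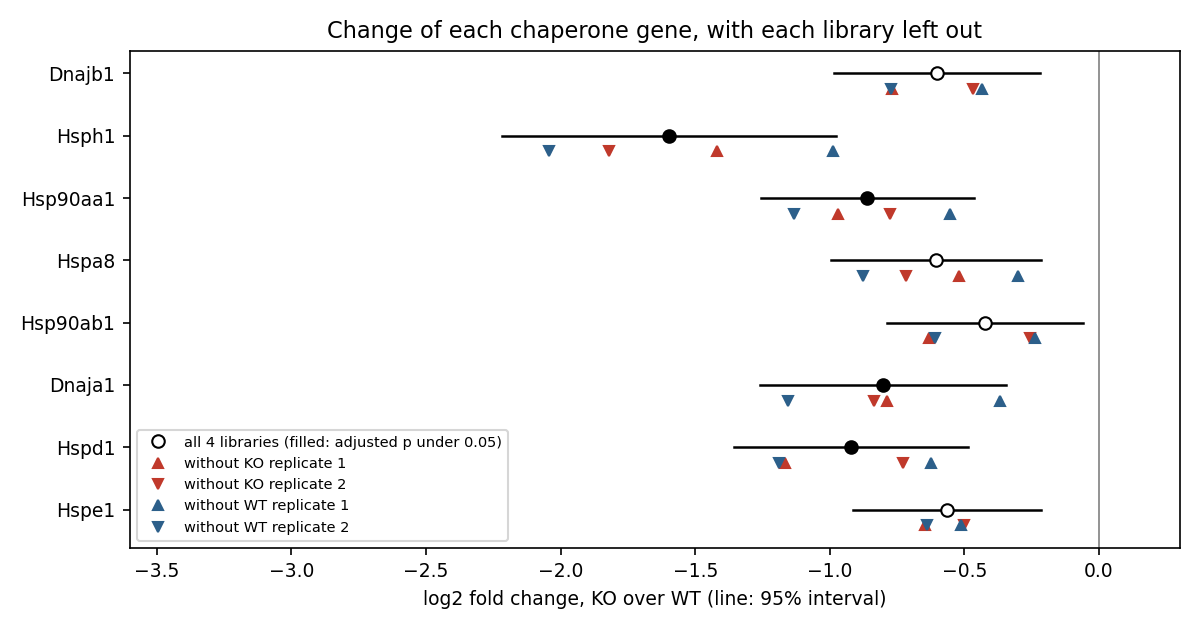
Log2 fold change of KO over WT for 8 chaperone genes, with the 95% interval from all 4 libraries (black) and the value with each library left out (triangles). Every value is below 0, and the values without WT replicate 1 lie closest to 0 for 7 of the 8 genes.

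The inducible and constitutive groups were not separated by the size of the change. The log2 fold changes of the inducible genes with enough counts were -1.60, -0.86 and -0.60, those of the constitutive cytosolic genes -0.80, -0.61 and -0.42, and those of the mitochondrial genes -0.92 and -0.57. Within the HSP90 pair, the inducible gene relative to the constitutive one was lower in KO. The ratio of Hsp90aa1 to Hsp90ab1, in CPM per kilobase of exon, was 0.206 and 0.234 in KO libraries and 0.314 and 0.272 in WT libraries. For the mitochondrial pair, the ratio of Hspe1 to Hspd1 was 0.425 and 0.521 in KO libraries and 0.318 and 0.431 in WT libraries, so that KO replicate 1 lay below WT replicate 2. The ratio of Hspa1a plus Hspa1b to Hspa8 was at most 0.0016 in any library. With 2 libraries against 2, a two-sided exact permutation test cannot go below p = 0.33, so these ratios are given as values.

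Per kilobase of exon, the order of the mean levels was the same in both genotypes. Hsp90ab1 was highest, with 723 ± 133 CPM per kilobase in KO and 970 ± 171 in WT, followed by Hspa8 with 405 ± 38.8 in KO and 616 ± 169 in WT (SD, n = 2 each). Hsp90aa1 had 158 ± 14.9 in KO and 286 ± 78.7 in WT, and Hspd1 had 133 ± 28.4 in KO and 251 ± 67.5 in WT. Within each library Hsp90aa1 lay above Hspd1, with 168 against 153 and 147 against 113 in KO. In WT these values were 342 against 299 and 231 against 204. Hspe1, Dnaja1 and Dnajb1 averaged between 37.0 and 61.8 CPM per kilobase in KO and between 56.2 and 91.4 in WT. In WT, neither Hspe1 and Dnaja1 nor Dnaja1 and Dnajb1 differed beyond the spread of Dnaja1 (SD 28.3). Hsph1 was lower, at 8.39 ± 1.63 in KO and 25.4 ± 12.4 in WT, and Hspa1a and Hspa1b stood last. Exon lengths are unions over all annotated transcripts, and isoform use was not measured. Genes that mainly use shorter transcripts would be understated, which may hold for Dnaja1, Hsph1 and Hspa8. The Hspa8 union has 4301 bases in 3 exon blocks, and that of Hsp90ab1 has 2999 bases in 9. In plain CPM, Hsp90ab1 and Hspa8 had 2450 against 1622 and 1886 against 1857 in KO. In WT they had 3271 against 3162 and 2548 against 2134. The order per kilobase therefore rests on the lengths used.

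WT replicate 1 was the highest library for 8 of the 9 tested members, against 27.0% of all genes tested. Members took 0.582% and 0.583% of all counts in KO libraries, and 0.931% in WT replicate 1 and 0.676% in WT replicate 2. Without WT replicate 1, 0 of the members passed in edgeR (3 at an unadjusted p under 0.05), beside 0.642% of all genes tested called lower, and Hsph1 came to -0.99 (adjusted p = 0.0727). Without WT replicate 2, which leaves 3 libraries of 1 sex pattern, 5 members were lower, beside 0.685% of all genes, and Hsph1 came to -2.04 (adjusted p = 0.00112). Without KO replicate 1, 7 members were lower, beside 7.88% of all genes. Without KO replicate 2, 5 were lower, beside 2.84%. The sign stayed negative for Hsph1, Hsp90aa1, Dnajb1, Hspa8, Hsp90ab1, Dnaja1, Hspd1 and Hspe1 in all 4 cases.

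In the wider chaperone network most genes had lower mean levels in KO, and a minority passed the test. It comprised 95 further genes in 8 lists, of which 91 were tested, with 11 lower and 2 higher (Fkbp5 and Hsf4), beside the 3.01% and 3.77% of all genes. At an unadjusted p under 0.05, 40 were lower, beside 11.4% of all genes. A negative log2 fold change was found in 85.7% of the 91 genes, against 48.8% of all genes tested, and the median was -0.41. The median was smallest in size without WT replicate 1 (-0.294) and largest without WT replicate 2 (-0.615). It was -0.504 without KO replicate 1 and -0.381 without KO replicate 2. The lists too were chosen with earlier results of these data known, so their shares are descriptive. The lists and their values are drawn together in the plot of the network by list.

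**Figure D4:**
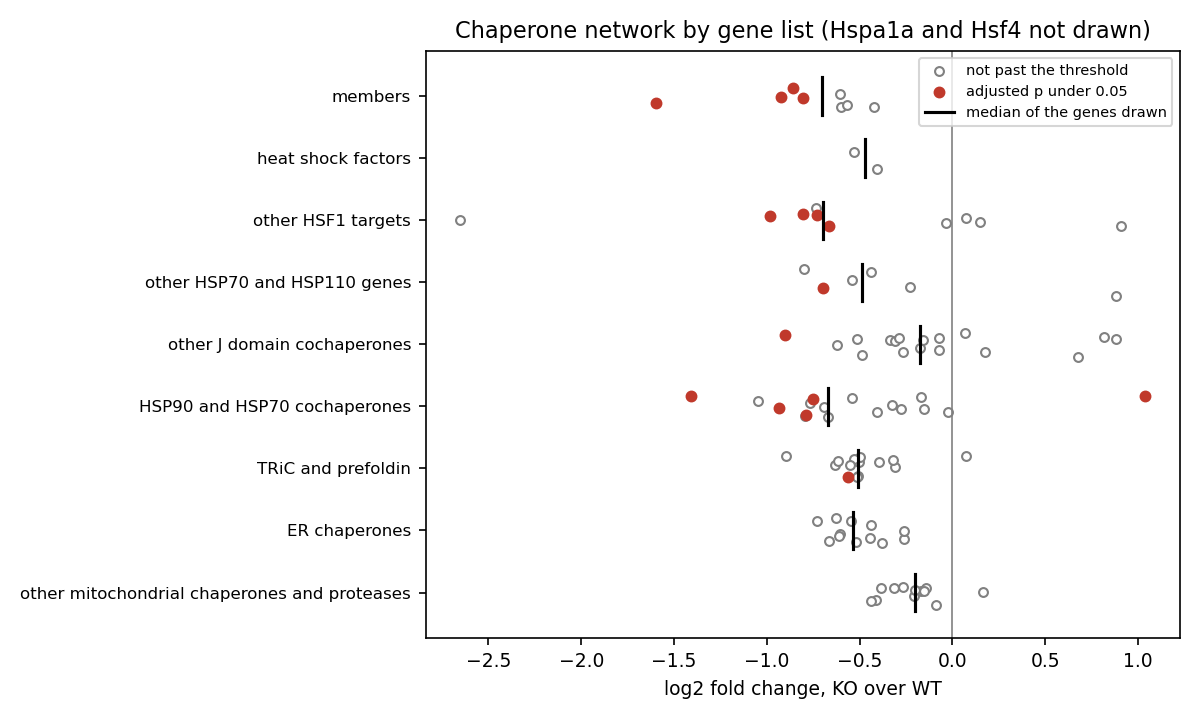
Log2 fold change of KO over WT for the tested genes of the chaperone network, by list, without Hspa1a and Hsf4, which rest on few counts; red points have an adjusted p under 0.05 and black lines are medians of the genes drawn. Points lie mostly left of 0, and Fkbp5 is the red point right of 0 among the genes drawn.

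Among the heat shock factors, Hsf1, the main activator of the inducible genes, had 45.4 and 50.7 CPM in KO and 75.5 and 63.4 CPM in WT. The groups did not overlap, and the difference did not pass (log2 fold change -0.53, adjusted p = 0.107). Hsf4, a factor best known from the lens, had 42 and 8 counts in KO and 0 and 0 counts in WT, at least 21-fold higher in KO against a floor of 3 counts over the WT group. It passed the filter on low counts through its KO libraries alone, so its call supports nothing here. KO replicate 1 held most of the counts, and without that library the bound was 7.14-fold.

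Of 10 tested other HSF1 targets, 4 were lower, and the list median was -0.70. Chordc1, a zinc-binding HSP90 cochaperone, had 49.9 and 56.2 CPM in KO and 96.5 and 88.7 CPM in WT (-0.81, adjusted p = 0.0219). Cacybp, a calcyclin-binding protein with HSP90 cochaperone features, had 49.0 and 49.7 CPM in KO and 85.2 and 78.6 CPM in WT (-0.73, adjusted p = 0.0317). Both were even between replicates, and both lost the call without either WT library. Fkbp4, the FKBP52 immunophilin of steroid receptor complexes, was lower too, with 200 and 116 CPM in KO and 371 and 252 CPM in WT (-0.98, adjusted p = 0.0377). The Chordc1 promoter window held 3 units in a row. So did those of Dnajb6, which did not pass (-0.17, adjusted p = 0.512). The Fkbp4 window held 1 match of 2 units, and the Cacybp window held 0. Hspb1, a small heat shock protein gene, was listed at 0 in all 4 libraries, and 46.3% of its 76-base stretches occur in another gene. Bag3, a further inducible cochaperone, had 17.5 and 14.8 CPM in KO and 19.7 and 13.4 CPM in WT, and the groups overlapped (adjusted p = 0.962).

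Of 6 tested genes of the HSP70 and HSP110 families, Hspa4, a constitutive HSP110 relative of Hsph1, was lower, with 307 and 304 CPM in KO and 573 and 418 CPM in WT (-0.70, adjusted p = 0.03). Of 17 other J domain genes, Dnajc9, a J domain protein that also binds histones, was the 1 gene lower, and the list median was -0.17. Dnajc9 had 115 and 99.5 CPM in KO and 209 and 193 CPM in WT (-0.90, adjusted p = 0.00825). The WT libraries differed little for this gene, and its call was lost without WT replicate 1 (adjusted p = 0.0846).

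Of 17 HSP90 and HSP70 cochaperones, 4 were lower and 1 higher, with a median of -0.67. Ptges3, the p23 protein that stabilises closed HSP90, had 180 and 154 CPM in KO and 360 and 279 CPM in WT (-0.93, adjusted p = 0.01), and 18.4% of its 76-base stretches occur in another gene. Ppid, a cyclophilin cochaperone, had 83.6 and 105 CPM in KO and 172 and 146 CPM in WT (-0.75, adjusted p = 0.0277), and lost the call without either WT library. Fkbp5, the FKBP51 immunophilin and a known glucocorticoid-induced gene, rose in KO. It had 118 and 162 CPM in KO and 72.3 and 63.8 CPM in WT (1.04, adjusted p = 0.0104), and lost the call without WT replicate 2. The related immunophilins Fkbp4 and Fkbp5 thus had opposite signs in the same libraries.

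Of 14 genes of TRiC and prefoldin, which fold actin and tubulin, Tcp1 was the 1 gene lower, and the list median was -0.51. Tcp1 had 228 and 227 CPM in KO and 349 and 323 CPM in WT (-0.56, adjusted p = 0.0384), and it lost the call with upper quartile scaling or without either WT library. Its exons share 571 bases with Acat3 on the opposite strand. Of 12 ER chaperones 0 passed in edgeR (6 lower at an unadjusted p under 0.05, 3 called in DESeq2), with a median of -0.53, and the smallest p was that of Pdia3 (-0.55, adjusted p = 0.0613). Of 12 other mitochondrial chaperones and proteases 0 passed in edgeR (2 lower at an unadjusted p under 0.05, 0 called in DESeq2), with a median of -0.20, and the smallest p was that of Afg3l2 (-0.44, adjusted p = 0.139).

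Other gene groups moved in the same libraries. Of 20 cell cycle genes, 18 were lower (median -1.06), and their summed CPM was 3051 and 2994 in KO against 5294 and 5349 in WT. Top2a, a topoisomerase of dividing cells, had 412 and 473 CPM in KO and 973 and 952 CPM in WT (-1.12, adjusted p = 0.00111), and the cyclin gene Ccnb2 came to -1.28 (adjusted p = 0.0027). The WT sums were level for the cell cycle list. The members' sums were 5787 and 5265 CPM in KO and 9987 and 7021 CPM in WT, so both lists had lower sums in KO. Single genes departed from the WT pattern of their list, such as Cdk1 (83.4 and 59.0 CPM in WT) and Hspe1 (140 and 130 CPM in WT). Of 19 immediate early genes, which mark acute stimulation, Dusp1 (-0.91, adjusted p = 0.0424) and Jun (-1.09, adjusted p = 0.0451) were lower, and both calls were lost with upper quartile scaling (adjusted p = 0.0581 each), without KO replicate 1 and without WT replicate 2. The list sum was 699.9 and 1311 CPM in KO and 1127 and 2153 CPM in WT. WT replicate 2 was the highest library there, whereas WT replicate 1 was highest for the chaperones. Whether either group has a part in the chaperone differences was not tested.

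Markers of other blood cell types also differed. Bulk libraries cannot tell other cells held by the sort from expression of these genes within LSK cells. B lineage markers were lower for 8 of 10 genes, with sums of 106 and 77.7 CPM in KO and 422 and 519 CPM in WT. Dendritic cell markers were higher for 6 of 9 genes, with sums of 1586 and 1461 CPM in KO and 553 and 592 CPM in WT, and mast cell markers for 6 of 8, with sums of 407 and 272 CPM in KO and 151 and 153 CPM in WT. Flt3 in the dendritic list and Gata2 in the mast cell list are also expressed by LSK cells. Without Flt3 the dendritic sums were 1041 and 855 CPM in KO and 136 and 135 CPM in WT, and without Gata2 the mast cell sums were 183 and 113 CPM in KO and 19.0 and 15.7 CPM in WT. Neutrophil and monocyte markers were higher for 6 of 10 genes, with sums of 961 and 751 CPM in KO and 366 and 508 CPM in WT. Of 4 tested erythroid markers 0 passed in edgeR, although all 4 were higher at an unadjusted p under 0.05, with sums of 132 and 91.7 CPM in KO and 18.5 and 69.1 CPM in WT. Of 5 tested T and NK cell markers 0 passed in edgeR, with 1 lower and 1 higher at an unadjusted p under 0.05, and the sums were 77.5 and 77.7 CPM in KO and 91.9 and 87.9 CPM in WT. No listed marker of the B lineage, dendritic, mast or neutrophil lists was at 0 in both libraries of a group. Their part in the chaperone result was not tested.

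The genes most like the inducible members were named by the smallest Euclidean distance between centred log2 CPM profiles over the 4 libraries. They were 1700048O20Rik, Dmd, Nov, Lgals1 and Tdp1, none of which passed the test (adjusted p from 0.111 to 0.533). That profile included Hspa1a with its few counts. With Hspa1a left out, a choice made after its counts were seen, the nearest genes were Hist1h2bb, Tra2b, Car9, Pard6g and Lage3. Tra2b, a splicing regulator, had 152 and 140 CPM in KO libraries and 335 and 250 CPM in WT libraries (adjusted p = 0.00766). Likeness over 4 libraries describes these values alone.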

How the data were processed

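RNA was sequenced from sorted LSK cells of 2 KO and 2 WT samples, with libraries made from 20 ng of total RNA and read for 76 cycles, per the labels' protocols. The authors deposited raw read counts per gene symbol. The submitters' processing notes name TopHat2 2.1.1, SAMtools 1.5, Picard 2.9.4, HTSeq 0.8.0 and build mm10. The annotation, the strand setting and how duplicate or multiply matching reads were handled: not given in the sources used here.

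The deposited counts were tested in R 4.3.3 with edgeR 4.0.16 (TMM scaling, filterByExpr with minimum count 10 and minimum total 15, quasi-likelihood test, no covariate). P-values were adjusted by Benjamini-Hochberg over all 14140 genes, with a threshold of 0.05. SE and 95% intervals come from the quasi-likelihood F. The step was tested on simulated counts in which all genes had the same dispersion (spread beyond counting error), which real counts need not have. DESeq2 1.42.0 was an alternative. Floors of 3 counts cover counting error only. Positions, exon unions and transcripts are from GENCODE M21 (GRCm38, the build mm10 denotes), and promoters from RefSeq. Members and lists were chosen with earlier results of these data known. Named were all members, up to 3 genes per network list (up to 2 per context list) with the smallest p among those past the threshold, or the gene with the smallest p where none passed, and the 5 nearest profiles among genes with a mean of at least 10 CPM. Bag3, Hspb1 and the second set of nearest profiles were chosen after their values were seen.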

Additional observations from a re-analysis of the deposited data

How the results depend on the processing

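Members lower numbered 4 with all libraries, 7 in the DESeq2 Wald test and 8 with no filter on low counts. All genes lower numbered 425, 816 and 987 in the same settings, so calls rose among all genes too. The members' median stayed between -0.88 and -0.43 in all 12 alternatives, and no member was higher in any. Network genes lower numbered 25 in DESeq2, 29 with no filter and from 0 to 30 with each library left out, and higher 1 with the stricter filter and from 0 to 2 with each library left out. The network median ranged from -0.61 (without WT replicate 2) to -0.29 across libraries left out. All genes lower and higher numbered 816 and 858 in DESeq2, 987 and 1056 with no filter, and from 95 to 1161 and from 160 to 997 with each library left out. Immediate early genes lower numbered 0 with upper quartile factors, 8 with no filter and from 0 to 10 with each library left out, with 0 to 1 higher. Cell cycle genes lower numbered from 7 to 19 with each library left out.

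With the replicate number as a block, 1317 genes were lower and 1314 higher, with 8 members, 38 network genes and 9 immediate early genes lower. The labels share only a number: the difference between replicates 1 and 2 in KO correlated at 0.08 across genes with that in WT. Hspa1a turned negative under the block (-0.27), without KO replicate 2 (-6.84) and without WT replicate 2 (-0.28), and ranged up to 2.28 without WT replicate 1. Without length scaling the Hsp90aa1 to Hsp90ab1 ratio was 0.288 in KO and 0.384 in WT, and the Hspe1 to Hspd1 ratio 0.264 in KO and 0.209 in WT, as the lengths differ. The cause of the other shifts was not tested. Hspa1a and Hspa1b rest on at most 32 counts in any library, and depth and reads lost to shared sequence cannot be told apart there.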
